A study of Mus musculus with 4 samples.

Results

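Internal exon CpGs are cytosines of CG dinucleotides that lie between the first and the last exon of a gene, in exons that splicing joins to another exon at both ends. A member was a cytosine measured in all 4 mice, on an autosome, inside an exon other than the first and the last of the longest curated RefSeq transcript of its gene (longest by spliced length), and at least 1000 bp from the nearest transcription start site (TSS) of any RefSeq transcript. The rule used no methylation value. It gave 66832 cytosines, 5.33% of the 1253673 autosomal and part of the 1276684 cytosines measured in all 4 mice. They covered 55179 CpGs, of which 11653 were read on both strands. All but 99 of the members lay in an exon of 1 gene only, and those 66733 members fell in 12525 exons of 6242 genes, out of 160064 internal exons of the 16677 genes whose curated coding transcript has at least 3 exons. The median exon with members held 4 of them, the fullest held 186, and 1419 exons held at least 10.

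The livers of 4 male mice, each aged 6 to 8 weeks and fed a normal diet, were measured by enhanced reduced representation bisulfite sequencing (ERRBS), which reads size-selected fragments of DNA cut with the enzymes MspI and TaqαI. Mixed-1 and Mixed-2 were on an undefined background that included C57BL/6J and other strains, and B6-1 and B6-2 were C57BL/6 (Black-6) mice. The strains were kept at different institutions, and an effect of housing cannot be separated from that of strain. Each mouse gave 1 whole liver, which holds hepatocytes and other liver cells together, so a level is an average over cell types whose shares cannot be told apart here. Values of single mice are given in the order Mixed-1 and Mixed-2, then B6-1 and B6-2.

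In vertebrate genomes most CpGs inside transcribed gene bodies carry a methyl group, placed and kept by DNA methyltransferases, while CpG-rich promoters stay free of it. Exons keep more CpGs than introns, since selection on the protein removes many of the mutations of methylated cytosine to thymine. Methylation of internal exons has been linked with transcription through the gene and with the choice of splice sites. Bisulfite turns unmethylated cytosine into a base that is read as T, so the percent of reads with C at a site (freqC) is its methylation level, and 5-hydroxymethylcytosine is counted with it. Sites above 80% are called hypermethylated and sites below 20% hypomethylated.

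The sequences of 6 exons show the range of the members and are given from the mm10 (GRCm38) RefSeq assembly, 5′ to 3′ on the strand of the gene, with each measured CpG in capitals. Exon 2 of Srsf1 (chr11:88048490-88048674, plus strand), which codes for part of a splicing factor, and exon 3 of Nudc (chr4:133535668-133535871, minus strand), which codes for part of a chaperone of the dynein motor, are shown whole because they are near the ends of the range of methylation while having nearly the same length. Srsf1 exon 2 holds 30 CpGs, of which 17 were measured, and Nudc exon 3 holds 8, all measured.
Srsf1 exon 2: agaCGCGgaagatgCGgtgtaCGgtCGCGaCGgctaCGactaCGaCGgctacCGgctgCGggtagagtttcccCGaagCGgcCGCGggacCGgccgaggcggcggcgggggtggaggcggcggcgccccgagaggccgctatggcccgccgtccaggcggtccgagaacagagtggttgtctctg
Nudc exon 3: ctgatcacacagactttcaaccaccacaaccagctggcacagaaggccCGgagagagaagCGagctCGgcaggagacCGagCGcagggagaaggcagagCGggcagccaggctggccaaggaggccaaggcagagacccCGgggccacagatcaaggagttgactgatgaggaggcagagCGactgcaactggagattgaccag

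Exon 6 of Wnk4, a kinase that controls salt transport, is shown because its methylation was close to 50% in every mouse. The stretch chr11:101265174-101265445 (plus strand) holds the end of the intron before it, and the exon begins at base 74.
Wnk4 exon 6 with upstream intron: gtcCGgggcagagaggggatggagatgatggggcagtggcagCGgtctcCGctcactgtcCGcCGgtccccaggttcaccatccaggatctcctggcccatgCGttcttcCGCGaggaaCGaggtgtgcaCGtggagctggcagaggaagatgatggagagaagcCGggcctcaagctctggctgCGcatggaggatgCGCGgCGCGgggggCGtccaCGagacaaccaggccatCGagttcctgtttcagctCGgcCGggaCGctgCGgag

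The last 3 stretches cross an exon edge and were chosen because exon and intron means differed there. In Celf5, a regulator of splicing in the nervous system, the exon begins at base 49 of chr10:81466992-81467119 (minus strand). In Crybg2, the exon ends at base 104 of chr4:134081376-134081675 (plus strand). In Srebf1, which codes for a transcription factor that drives fatty acid synthesis in hepatocytes, the exon runs from base 44 to base 222 of chr11:60203756-60204020 (minus strand).
Celf5 exon 8 with upstream intron: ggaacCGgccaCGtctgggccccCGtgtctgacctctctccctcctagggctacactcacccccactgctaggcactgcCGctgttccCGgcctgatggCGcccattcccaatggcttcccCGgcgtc
Crybg2 exon 10 with downstream intron: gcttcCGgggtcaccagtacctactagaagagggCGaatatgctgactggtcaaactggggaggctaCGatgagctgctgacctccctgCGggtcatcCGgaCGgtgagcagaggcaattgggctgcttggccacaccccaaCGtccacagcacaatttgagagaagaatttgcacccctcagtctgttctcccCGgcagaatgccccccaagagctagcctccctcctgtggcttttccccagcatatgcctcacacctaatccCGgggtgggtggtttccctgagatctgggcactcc
Srebf1 exon 9 with both introns: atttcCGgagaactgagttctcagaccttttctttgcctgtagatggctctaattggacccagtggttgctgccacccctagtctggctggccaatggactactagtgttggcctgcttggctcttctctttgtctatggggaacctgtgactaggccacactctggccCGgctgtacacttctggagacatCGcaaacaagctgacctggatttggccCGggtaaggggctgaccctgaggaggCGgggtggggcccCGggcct

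Internal exon CpGs were mostly methylated in liver. The mean freqC over the 66832 members was 70.5% and 71.1% in the Mixed mice and 70.7% and 70.8% in the B6 mice, or 70.8% ± 0.224 (SD, n = 4 mice). The median member stood at 88.3%. Of all members, 63.6% had a mean over the mice above 80%, 16.9% were below 20% and 19.4% lay between. Counted in each mouse on its own, 61.7% to 62.9% of members were hypermethylated and 16.9% to 17.1% hypomethylated. Most members were thus in the methylated group, and the middle held slightly more members than the unmethylated group. The 4 mice had nearly the same shares above 80% and below 20%.

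The other 442432 autosomal cytosines at least 1000 bp from a TSS had a mean of 62.8% ± 0.3503 (SD, n = 4). Of these, 24.3% lay in CpG-dense sequence, against 34.1% of the members. Their median distance to a TSS was 12690 bp, against 8042.5 bp for the members. The 1253673 autosomal cytosines together had a mean of 28.4% and a median distance of 470 bp, with 62.7% of them in dense sequence. Dense sequence had an observed to expected CpG ratio above 0.6 and a GC content of at least 50% in the 200 bp around the site, and all other sequence is called sparse. Coverage of the members ran from the set minimum of 10 reads up to 361, with medians of 41 and 45 reads in the Mixed mice and 60 and 58 in the B6 mice. The 4 files summed to between 60654199 and 99215153 reads over 1329761 to 1557387 cytosines. The member exons of both B6 mice were therefore read more deeply than those of both Mixed mice.

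At the distance limit the levels were low on both sides. The 984 members from 1000 to under 1100 bp of a TSS had a mean of 37.3% ± 0.477 (SD, n = 4), and the 1012 internal exon cytosines from 900 to under 1000 bp, which are no members, had a mean of 35.1% ± 0.449.

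Members of the same exon were more alike than members of different exons. In the 1419 exons with at least 10 members, differences between exons made up 92.5% of the variance of the site means. The median range of site means within an exon was still 19.6 points. Of these exons, 838 had a mean above 80%, 282 were below 20% and 299 lay between. The level of each exon was repeated from mouse to mouse, with a median SD over the 4 mice of 1.51 percentage points. Across these exons, Pearson's r between any pair of mice was 0.993 to 0.996, as a description over exons that differ in coverage and CpG density and are not replicates. Between 15 and 46 of the exons differed by over 10 points within a pair of mice. The lowest of these counts was that of B6-1 with B6-2, the pair with the most reads.

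Both strands of a CpG gave like values. At the 11634 CpGs read on both strands in 1 exon, the median difference between the strands lay between 4.43 and 5 points in the 4 mice, and 72.9% to 77.3% of these CpGs differed by 10 points or less. Pairs of CpGs of the same exon differed more with distance. The mean difference, averaged over exons, was 8.79 points at 2 to 25 bp in 8384 exons and 10.7 points at over 100 and up to 200 bp in 2672 exons. Reads were 50 cycles long, so CpGs at the shorter distances often share reads.

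The 5 lowest exons with at least 10 members were almost free of methylation. Exon 2 of Srsf1 had a freqC of 0% in Mixed-1, Mixed-2 and B6-2 and of 0.0649% in B6-1 over 23 members. Exon 2 of Pds5a, which codes for a regulator of the cohesin ring, had a mean of 0.0270% ± 0.0541 over 11 members. Exon 2 of Thumpd1, a helper of tRNA acetylation, had 0.0397% ± 0.0612 over 40 members. Exon 2 of Jag1, a ligand of Notch receptors, had 0.0548% ± 0.110 over 10 members. Exon 6 of Atg9b, an autophagy membrane protein, had 0.0612% ± 0.0267 over 31 members (all SD, n = 4). All members of these 5 exons lay in CpG-dense sequence, and 4 of the 5 were exon 2 of their gene, with members as near as 1011 bp to a TSS in Jag1 and 4018 bp in Atg9b.

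The highest exons stood above 96% in the mean. Exon 11 of Srrm2, which codes for a large scaffold protein of nuclear speckles and runs over 6569 bp, had a freqC of 96.6%, 97.3%, 97.3% and 97.5% mouse by mouse. Exon 6 of Etl4 had a mean of 97.1% ± 1.33, and exon 2 of Zfp516, a zinc finger transcription factor, 96.98% ± 0.332. Exon 3 of Nudc had 94.4%, 97.4%, 97.5% and 97.8% in the same order of mice. Their CpG density differed widely, with 82.6% of the members in dense sequence in Srrm2 and 0% in Nudc.

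The 5 exons nearest 50% differed in how their sites made up that level. In exon 6 of Wnk4 the 21 members had means from 13.4% to 63.1%, and its exon mean was 52.7%, 52.3%, 46.8% and 50.1% mouse by mouse. In exon 21 of Pdzd2 the 31 members ran from 0% to 94.7%, and in exon 67 of Ryr1, the calcium release channel of skeletal muscle, the 10 members ran from 13.7% to 90.9%. Exon 6 of Rin1, a Ras effector, ran from 18.4% to 91.7% and exon 10 of Coro1b, an actin-binding protein, from 23.2% to 83.0%. Only in Wnk4, among these 5 exons, did no member exceed 80%.

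**Figure D1:**
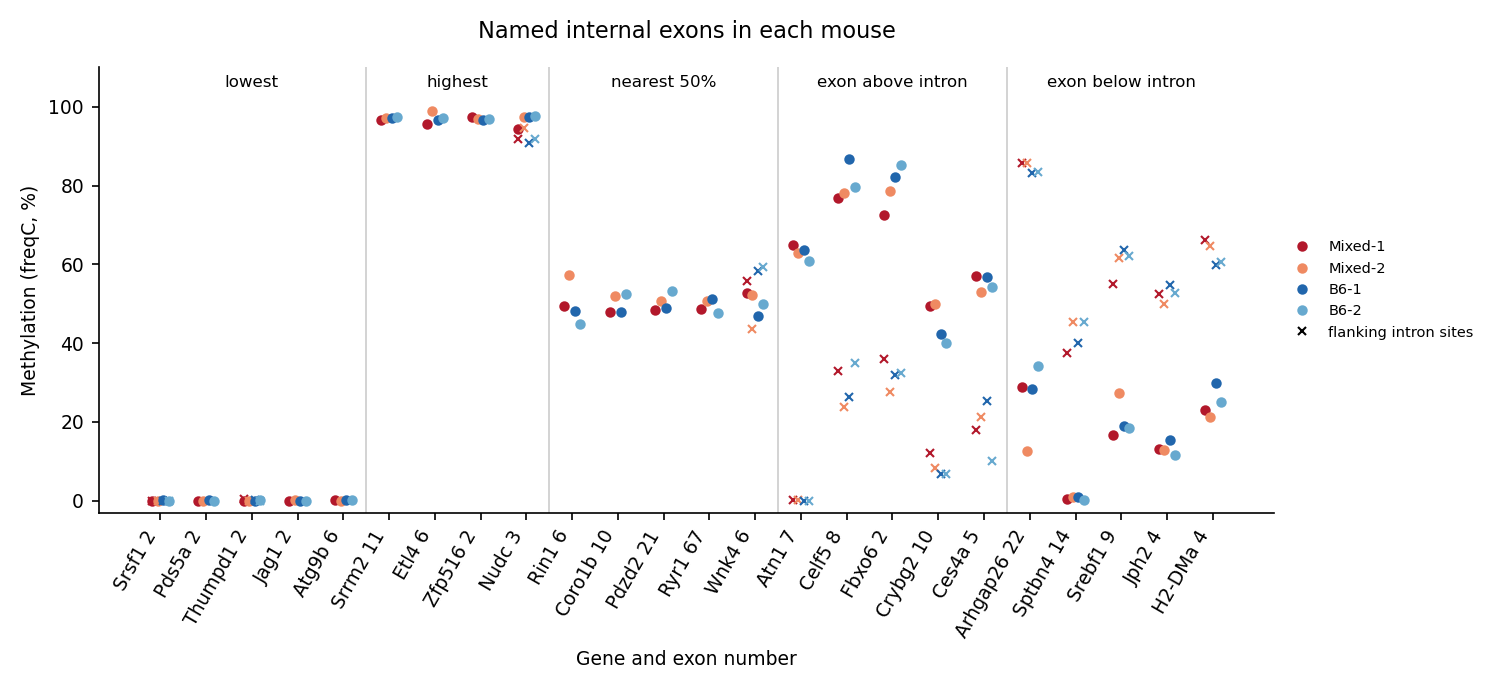
Methylation (freqC, %) of the 24 named internal exons in each of the 4 mice (circles) and of intron cytosines within 200 bp of them where measured (crosses); the label gives the gene and exon number. The 5 lowest exons sit near 0, the highest near 97%, and in the 10 exons on the right the circles and crosses of all mice are apart. Those 10 exons were picked for a large exon minus intron difference with the same sign in all mice.

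Methylation was lower in early exons. Members in exon 2 had a mean of 53.3% ± 0.211, those in exon 3 of 60.4% ± 0.121, in exon 4 of 70.5% ± 0.243 and in exon 5 of 73.4% ± 0.222 (SD, n = 4). From there the means were 74.9% in exons 6 to 9, 77.4% in exons 10 to 14, 79.8% in exons 15 to 19, 79.7% in exons 20 to 29 and 79.0% in exons 30 and higher. The order was the same in every mouse up to exons 15 to 19. The share of hypomethylated members was 34.9% in exon 2 and 9.62% in exons 10 to 14.

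Exon 2 members minus those of exon 10 and higher gave −25.2, −25.4, −25.4 and −25.3 points mouse by mouse, or −25.3 ± 0.080 (SD). The direction was the same in 4 of 4 mice, and the two-sided exact sign-flip permutation test gave p = 0.125, the smallest that 4 mice allow, so no difference of this kind could pass 0.05 here. Early exons are also nearer to a TSS and richer in CpGs. The median distance to a TSS was 3006 bp in exon 2 and 18462 bp in exons 30 and higher. Dense sequence held 49.8% against 25.04% of their members. Averaged over exons, so that each exon counts once, exon 2 had 68.1% and exons 10 to 14 had 82.5%.

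The gap between early and late exons differed with the distance to the nearest TSS. That TSS may belong to any RefSeq transcript, so these classes are not matched for distance to the gene's own start, which was not tested. Within 1 to 2 kb of a TSS, exon 2 had 31.9% and exons 10 and higher 74.5%, a difference of −42.5 ± 0.117 points, and at 10 to 20 kb it was 77.9% against 79.5%, or −1.60 ± 0.178 points. At 50 kb and beyond the difference was −4.12 ± 0.5002 points, and that at 1 to 2 kb minus it was −38.4 ± 0.434 points (exact permutation p = 0.125, n = 4 mice). In the 249 genes with members in both exon 2 and exon 10 or higher, the mean difference within the gene was −13.4 ± 0.291 points and the median gene had −2.57. The mean over genes was thus far from the median gene.

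Over all distances together, the gap was wider in dense than in sparse sequence. Dense members had 32.7% in exon 2 and 61.1% in exons 10 to 14, against 73.7% and 83.7% in the sparse members. Exon 2 minus exons 10 and higher was −31.8 points in dense and −9.89 points in sparse sequence. The difference between these gaps was −21.9 ± 0.182 points, in the same direction in 4 of 4 mice (exact permutation p = 0.125). The order was not kept at every distance. Dense sequence had the wider gap at 1 to 2 kb (−42.4 against −19.1 points), 2 to 5 kb (−20.8 against −7.10) and 20 to 50 kb (−7.29 against −5.18). At 5 to 10 kb it was −3.70 ± 0.588 against −4.97 ± 0.272 points. Dense members of exon 2 were the higher ones at 10 to 20 kb, by 6.47 ± 0.649 points in 4 of 4 mice, against −3.16 ± 0.170 in sparse sequence. At 50 kb and beyond the 36 dense members of exon 2 gave 1.60 ± 1.42 points, and sparse sequence gave −5.71 ± 0.255.

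**Figure D2:**
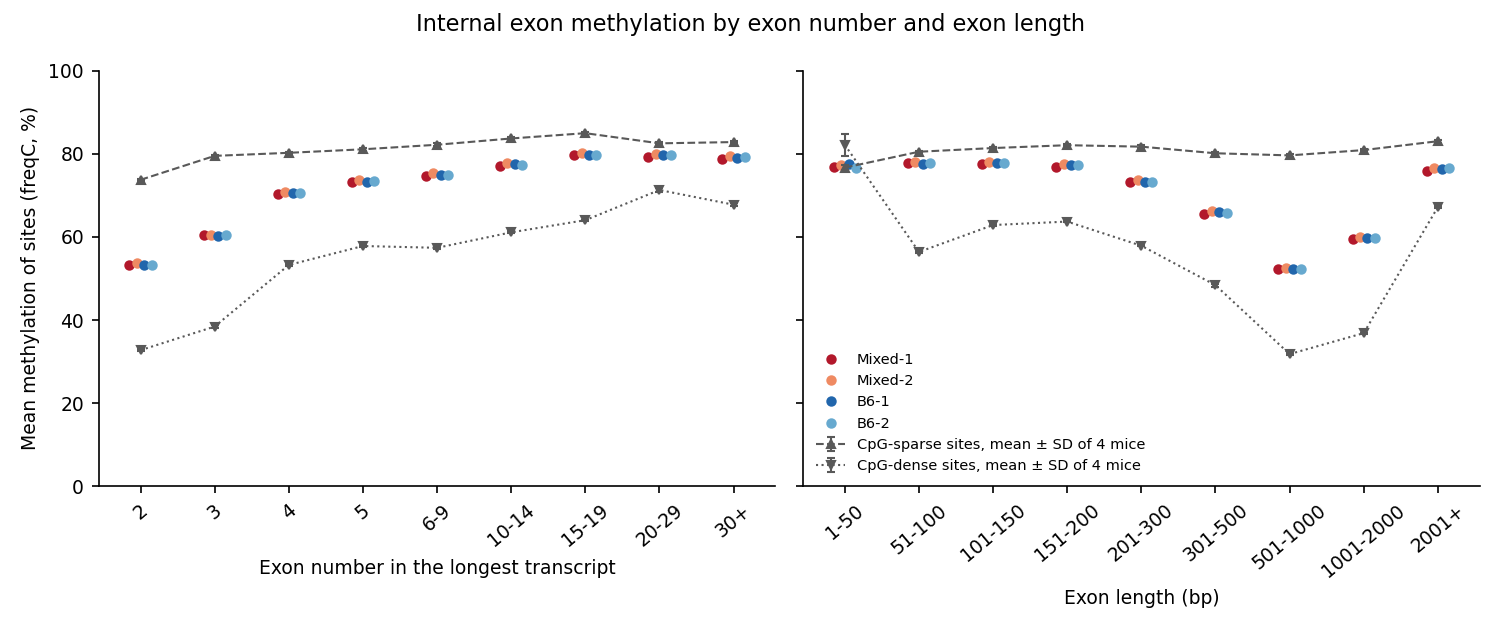
Mean methylation of internal exon sites (freqC, %) by exon number (left) and exon length in bp (right) in each mouse (circles), with the mean ± SD of the 4 mice for CpG-sparse (upward triangles) and CpG-dense (downward triangles) sites. Sparse sites stay between 73.7% and 84.9% in all classes, while dense sites run from 31.8% to 82.1%; the highest dense value rests on the 17 dense sites in exons of 1 to 50 bp.

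Exon length showed a dip in the middle. Members in exons of over 50 and up to 100, 150 and 200 bp had means of 77.7%, 77.8% and 77.2%. In exons of over 300 and up to 500 bp the mean was 65.8% ± 0.348, up to 1000 bp it was 52.3% ± 0.170, and up to 2000 bp 59.7% ± 0.225. Exons over 2000 bp had 76.3% ± 0.332 (SD, n = 4), close to the short ones. Exons over 500 bp minus exons of up to 150 bp gave −18.0 ± 0.066 points, with the same sign in 4 of 4 mice (exact permutation p = 0.125). By distance to a TSS this was −30.0 ± 0.100 points at 1 to 2 kb and −14.4 ± 0.117 at 10 to 20 kb. It was −1.90 ± 0.437 points at 20 to 50 kb and −3.01 ± 0.458 at 50 kb and beyond.

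The dip was seen in dense sequence. Dense members had 62.8% in exons of over 100 and up to 150 bp and 31.8% in exons of over 500 and up to 1000 bp, whereas sparse members had 81.4% and 79.6%. The difference between exons over 500 bp and up to 150 bp was −22.2 points in dense and −0.171 ± 0.129 points in sparse members, and these differed by −22.0 ± 0.188 points (exact permutation p = 0.125, n = 4). At low CpG ratios the sign was the other one, with 2.84 ± 0.229 points at up to 0.2 and 0.861 ± 0.165 at 0.2 to 0.4. With the mean taken over exons, exons over 500 bp minus exons of up to 150 bp gave −4.17 points. In the 344 genes with members in exons of both kinds, the mean difference within the gene was −1.51 ± 0.232 points and the median gene had 0.786.

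Members in dense and sparse sequence differed, most of all near a TSS. The 22752 dense members had a mean of 50.5% ± 0.125 and the 43981 sparse members of 81.3% ± 0.280. The difference was −30.7 ± 0.169 points in 4 of 4 mice (exact permutation p = 0.125). By distance it was −49.5 ± 0.308 points at 1 to 2 kb from a TSS and −23.0 ± 0.152 at 10 to 20 kb. Farther out it was −5.38 ± 0.246 at 20 to 50 kb and −11.1 ± 0.086 at 50 kb and beyond. Dense members had a median distance to a TSS of 6490.5 bp, against 8970 bp for sparse members. Of the dense members 40.1% were hypomethylated, against 4.92% of the sparse. By CpG ratio the level was 80.6% at 0.4 to 0.6, 66.9% at 0.6 to 0.8, 35.02% at 0.8 to 1 and 15.5% above 1. The dense members were not spread evenly: 43.6% of them were hypermethylated, so dense exons held both extremes.

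Within an exon the density of the site made no such difference. In the 1884 exons with both dense and sparse members, dense minus sparse was 0.00966, 0.153, 0.132 and 0.143 points mouse by mouse, or 0.110 ± 0.067 (SD). The windows of neighbouring sites overlap, so the contrast within an exon is also one of smaller differences in density.

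Methylation also differed by where in the codon the CpG stood. A CpG at codon positions 1 and 2 begins a CGN codon for arginine. One at positions 2 and 3 ends a codon for serine, proline, threonine or alanine, and one at positions 3 and 1 joins neighbouring codons. The 27057 members at positions 1-2 had a mean of 76.2% ± 0.231, the 15814 at positions 2-3 of 67.5% ± 0.246 and the 22480 at positions 3-1 of 68.1% ± 0.252 (SD, n = 4). Members at positions 1-2 were higher than the other coding members by 8.45, 8.40, 8.29 and 8.29 points mouse by mouse. For positions 2-3 the difference was −5.02 ± 0.111 points and for positions 3-1 it was −4.91 ± 0.173 points. Each of these 3 contrasts had the same sign in 4 of 4 mice, with an exact permutation p = 0.125 and an adjusted p of 0.125 over the 3.

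The contrast by codon position was smaller with each exon counted once, and smaller again within exons. Averaged over the exons that hold such members, positions 1-2 had 80.2%, positions 2-3 77.9% and positions 3-1 77.6%. Dense members made up 28.0% of those at positions 1-2, 37.1% at positions 2-3 and 38.6% at positions 3-1. In dense sequence positions 1-2 were 12.8 points above the others, and in sparse sequence 2.01 ± 0.100 points. In the 7154 exons with members of positions 1-2 and of other positions, the difference within the exon was 1.10 ± 0.120 points. Within exons, positions 3-1 differed by −1.28 ± 0.191 points in 6835 exons, and positions 2-3 by 0.168 ± 0.103 points, the other sign than over all sites, in 5689 exons (all exact permutation p = 0.125, n = 4). The within-exon contrasts by codon position and by density, and those by number and length within genes, were chosen after the site values had been seen.

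**Figure D3:**
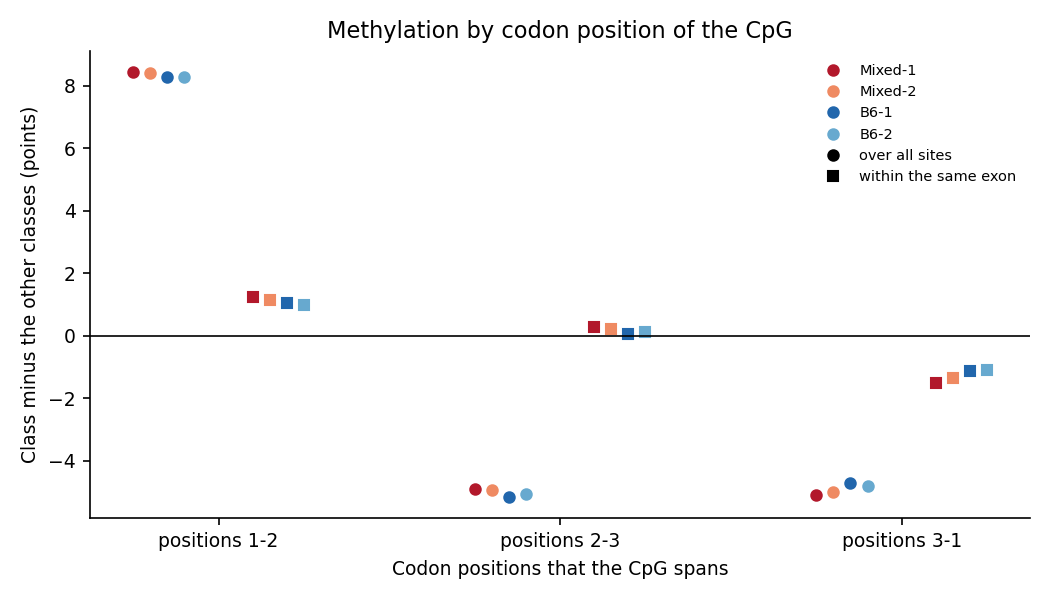
Difference in methylation (percentage points) between CpGs at the given codon positions and the other coding CpGs in each mouse, over all sites (circles) and averaged over exons that hold both kinds (squares). Over all sites positions 1-2 sit above 8 points and the other classes near −5, and within exons all values lie between −1.51 and 1.24 points.

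Members in the 5′ UTR parts of internal exons were lower than coding members. The 1283 members in the 5′ UTR had a mean of 42.6% ± 0.172, against 71.3% ± 0.227 for the 65420 coding members. Their median distance to a TSS was 3503 bp against 8182 bp, and 46.6% against 33.9% of them lay in dense sequence. The 30 members in the 3′ UTR had 66.5% ± 1.88. Members in exons that are the first or last exon of some other transcript, 2437 sites in 361 exons, had 57.4% ± 0.199, against 71.3% for the rest. Here too the median distance to a TSS was shorter, at 3790 against 8275 bp, and the dense share higher, at 52.6% against 33.4%. Members next to the last exon had 62.2% ± 0.214, and those 4 or 5 exons before it 73.7% ± 0.155, with dense shares of 43.6% and 33.7% and median distances to a TSS of 5554 and 8027 bp. In genes with few exons, those next to the last are also early exons, and the part of distance and density in this difference was not tested.

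Each exon was compared with the intron cytosines within 200 bp of it, which lie in no exon of any RefSeq transcript and keep the same distance from TSSs. Such introns gave 17328 cytosines beside 6614 of the exons, and the mean over these intron sites was 68.5% ± 0.311 (SD, n = 4). With each exon counted once, exons had 78.3%, 78.7%, 78.1% and 78.3% and their introns 77.0%, 77.6%, 76.7% and 76.6% mouse by mouse. The exon was higher by 1.37 ± 0.255 points (SD) in 4 of 4 mice (exact permutation p = 0.125). The median exon was higher by 0.606 points, and the middle 50% of exons lay between −3.94 and 5.92 points. Of the exons, 50.4% lay within 5 and 72.2% within 10 points of their introns.

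The sign of the mean depended on how sites were weighted. Taken over sites rather than exons, the exon members beside these introns differed from the intron sites by −1.99 points, and with reads pooled by −2.87 points. Exon sites were in dense sequence in 36.8% of cases and intron sites in 20.5%, and soft-masked repeats held 1.05% of the exon and 3.54% of the intron sites. With sites of a CpG ratio of at most 0.6 on both sides, exons were higher by 1.41 ± 0.234 points in 5687 exons, and with dense sites on both sides by 0.623 ± 0.319 points in 656 exons. By exon number the difference was 1.45 points for exon 2, 2.31 for exon 3, 1.20 for exons 4 to 9 and 1.33 for exons 10 and higher. By exon length it was 0.987 points up to 100 bp, 1.62 up to 150 bp, 1.52 up to 200 bp and 1.26 up to 500 bp. In the 221 exons over 500 bp it was 0.535 ± 0.310 points, and the median exon there had −0.748. The mean was positive in every mouse in each class of number and length.

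The exon was above its intron at both ends. Against the intron before it, the exon was higher by 1.77 ± 0.392 points in 3283 exons, and against the intron after it by 0.781 ± 0.204 points in 4056 exons. By position, intron sites 1 to 25 bp before the exon had 68.6% ± 0.201 and exon sites 1 to 25 bp inside had 71.9% ± 0.244. At the donor end the last 25 bp of the exon had 72.7% ± 0.287 and the first 25 bp of intron had 71.9% ± 0.260. These bins hold different exons, and the difference between both ends was not tested. Intron means were lowest far from the exon, with 52.7% at 176 to 200 bp before it and 60.3% at 176 to 200 bp after it, in 309 and 262 sites.

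**Figure D4:**
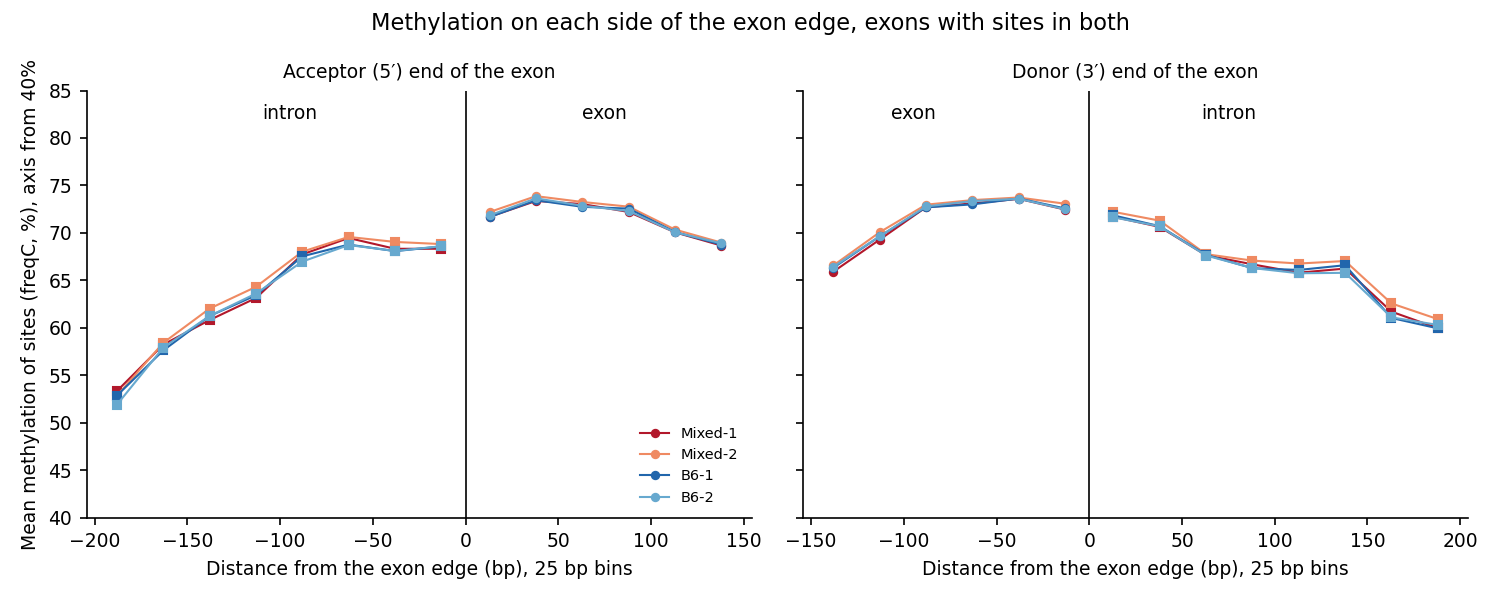
Mean methylation of sites (freqC, %, axis from 40%) in 25 bp bins on both sides of the acceptor (left) and donor (right) end of the 6614 exons with sites on both sides, in each mouse (lines). Exon sites lie between 66.3% and 73.6% in the mean of the mice, and intron sites are lowest in the bins farthest from the exon.

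CpGs on both sides of an exon edge were somewhat less alike than CpGs at the same distance inside the exon. At 26 to 50 bp, in 1526 exons with pairs of both kinds, pairs inside the exon differed by 9.49 ± 0.212 points and pairs across the edge by 10.6 ± 0.235. The excess was 1.11 ± 0.045 points (SD, n = 4 mice). It was 0.976 ± 0.242 points at 2 to 25 bp, 0.628 ± 0.103 at 51 to 100 bp and 0.927 ± 0.140 beyond that and up to 200 bp. All 4 mice had an excess at each distance (exact permutation p = 0.125).

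Exons that stood far from their introns were few. Of the 6614 exons, 302 were over 25 points above and 193 over 25 points below their introns, and 1741 were higher and 1368 lower in all 4 mice. With at least 4 sites on each side, 773 exons remained, of which 228 were higher and 189 lower in all 4 mice. The named exons were the most extreme of these, so their values are a description.

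**Figure D5:**
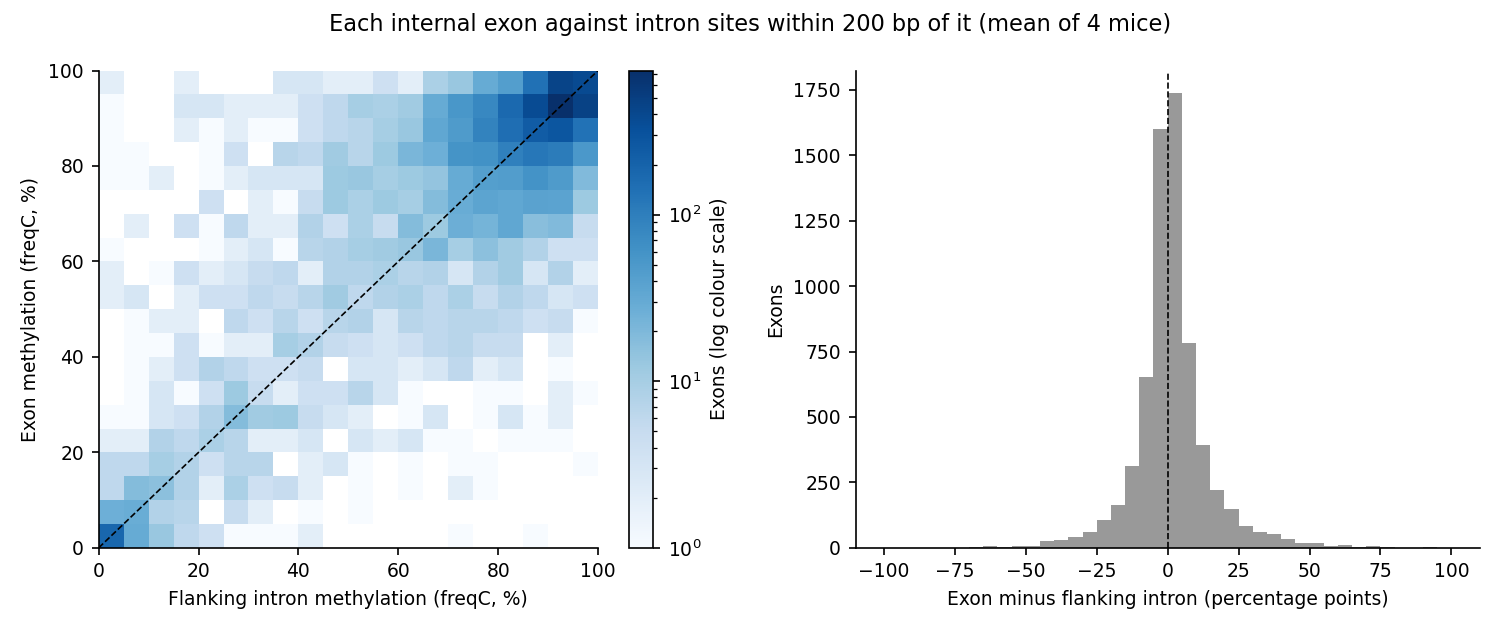
Left, number of exons (log colour scale) by methylation of the exon and of intron sites within 200 bp of it (freqC, %, mean of the 4 mice), with the line of equal values. Right, number of exons by the difference in percentage points; 50.4% of the 6614 exons lie within 5 points of 0, with 302 above 25 and 193 below −25.

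The exon was the more methylated side in 5 named exons. In exon 7 of Atn1, which codes for a transcriptional corepressor, 25 exon sites had 64.9%, 62.8%, 63.8% and 60.8% mouse by mouse, and 13 sites of the intron before it had at most 0.256% in any mouse. In exon 8 of Celf5, 4 exon sites had 76.7%, 78.2%, 86.7% and 79.7% and 4 intron sites 33.0%, 23.8%, 26.4% and 34.8%. In the sequence shown above, the intron CpGs at bases 6, 12 and 24 had means of 34.7%, 22.1% and 26.6%, and the exon CpGs at bases 80, 89, 100 and 122 had 79.8%, 71.5%, 84.5% and 85.7%. The exon edge lies between the CpGs at bases 24 and 80, which are the nearest measured ones on each side. Exon 2 of Fbxo6, a subunit of a ubiquitin ligase, had 79.7% ± 5.36 against 32.1% ± 3.47, and exon 5 of Ces4a, of the carboxylesterase family, 55.2% ± 1.95 against 18.6% ± 6.43.

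Crybg2 had no sharp step at its exon edge. Its exon 10 had 45.4% ± 5.02 and the intron sites after it 8.48% ± 2.51. Along the printed stretch the mean was 68.8% at base 6, 70.3% at base 35, 40.1% at base 68, 23.1% at base 90, 38.6% at base 99 and 14.9% at base 103, just before the exon ends at base 104. In the intron it was 14.6% at base 143, 14.2% at base 195 and 1.59% at base 266. The lower values therefore began inside the exon. Base 35 also differed between mice, with 88.2% and 93.1% in the Mixed mice and 48.9% and 51.04% in the B6 mice.

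The exon was the less methylated side in another 5. In exon 22 of Arhgap26, 4 exon sites had 28.8%, 12.5%, 28.3% and 34.1% mouse by mouse, and 4 intron sites had 85.7%, 85.8%, 83.2% and 83.4%. In exon 14 of Sptbn4, the spectrin of axon initial segments, all 52 members had means of 4.40% or less and the exon mean was 0.629% ± 0.322, against 42.0% ± 3.89 in 4 intron sites. Exon 4 of Jph2, which ties membranes together in heart muscle, had 13.2% ± 1.58 over 62 members against 52.4% ± 1.99, and exon 4 of H2-DMa, a helper of peptide loading on MHC class II, 24.8% ± 3.65 against 62.8% ± 3.15.

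Srebf1 had its highest values in the intron after the exon. Its exon 9 had 16.7%, 27.4%, 18.9% and 18.6% mouse by mouse, against 55.0%, 61.5%, 63.7% and 62.2% in the introns. In the printed sequence the exon CpGs at bases 170, 193 and 220 had means of 16.2%, 32.7% and 12.3%. The intron CpGs after it, at bases 246 and 259, had 80.2% and 50.4%, and the CpG at base 6 in the intron before it had 31.6%. The exon mean was below the intron mean in every mouse, but the exon had been picked for the same sign in all mice. At single CpGs the exon and intron levels overlapped. Intron base 6 was below exon base 193 in Mixed-2 (30.4% against 40.9%) and in B6-2 (23.1% against 28.8%). It was above base 193 in Mixed-1 (31.25% against 26.4%) and in B6-1 (41.7% against 34.9%). The members lay as near as 1473 bp to a TSS.

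Exons of 1 gene often shared their level but not always. In the 1322 genes with at least 2 exons of at least 4 members, the median range between the lowest and the highest exon was 11.3 points. All such exons were above 80% in 617 genes and all below 20% in 42 genes. In 104 genes, or 7.87%, at least 1 exon was below 20% and another above 80%. The lowest exon came before the highest in 69 of these 104.

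The genes with most members showed both patterns. Ttn, which codes for the giant protein of the sarcomere, had 174 members in 28 exons with 90.3%, 91.1%, 89.9% and 89.2% mouse by mouse, and its exon means ran from 50.6% to 96.6%. Chadl, related to a cartilage matrix protein, had 179 members in 1 exon with 2.02% ± 0.299. Speg, a kinase of striated muscle, had 205 members with 40.2% ± 0.746, and its 10 exons ran from 10.5% to 94.3%. Lmtk3, a membrane-bound kinase, had 177 members with 56.1% ± 1.80 and exon means from 1.52% to 88.2%. Mn1, a transcriptional coregulator, had 186 members in 1 exon with 63.7% ± 1.41 and site means from 1.44% to 98.4%.

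Gene groups were compared by the mean over the members of each gene. The median gene of the 6242 had 87.9%, and 69.3% of them were above 80%. Of 28 ubiquitous genes 12 had members, with a median of 91.7%, and 11 were above 80%. Dync1h1, the heavy chain of dynein, had 93.8% ± 0.716 and Myh9, a nonmuscle myosin, 90.6% ± 0.342. Actb, which codes for cytoplasmic actin, was the exception with 15.7% ± 1.70. Of 32 hepatocyte genes 11 had members, with a median of 83.5%, of which 8 were above 80%, 3 lay between 20% and 80% and 0 below. The first 2 genes named in each list are those with most members, and others were named for their values. Fasn, the fatty acid synthase, had 83.5% ± 0.737 and Pcx, the pyruvate carboxylase, 86.0% ± 2.64. The lowest was Fgg, a fibrinogen chain, with 25.6% ± 7.44. Of 24 genes of other liver cells 18 had members, with a median of 79.9%, 9 above 80%, 9 between and 0 below 20%. Vwf, from endothelial cells, had 62.9% ± 0.690 and Col1a1, from collagen-making cells, 51.2% ± 0.312. Other genes of the same cells were higher, among them Pecam1 with 93.2% ± 1.28 and Col1a2 with 86.8% ± 1.09.

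All lists but the ubiquitous genes had a median under that of all genes, and the developmental factors had the lowest. Of 40 developmental transcription factors 32 had members, with a median of 28.2%, and 15 of them were below 20%, against 5.35% of all genes. Tbx2, a T-box factor, had 15.4%, 11.4%, 11.8% and 10.7% mouse by mouse, and Gata4, a GATA factor, 57.2%, 55.7%, 53.0% and 53.4%. Of 30 neuronal genes 26 had members, with a median of 63.0%, 8 above 80% and 4 below 20%. Bsn, of the presynaptic active zone, had 77.1% ± 1.38 and Shank1, of the postsynaptic density, 12.5% ± 0.734, with exon means from 5.19% to 86.7%. The median share of dense members was 77.5% in the developmental factors, 53.9% in the neuronal genes and 0% over all genes. Of 20 imprinted genes 6 had members, with a median of 66.1%, 3 above 80% and 1 below 20%. Cdkn1c, an inhibitor of cell division, had 20.4% ± 2.29 over 21 members and Slc22a18, a transporter, 17.4% ± 6.55 over 3. The imprinted list held only 31 members in all, so most of its gene values rest on very few sites.

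The strain means of internal exon methylation were closer to each other than the Mixed mice were. Mixed had 70.8% ± 0.380 and B6 70.7% ± 0.041 (SD, n = 2 each), a difference of 0.0710 points. The two-sided exact permutation test gave p = 1, where 2 against 2 mice cannot go below 0.333. Mixed-1 was the lowest and Mixed-2 the highest of the 4 mice, so the B6 values lay between the Mixed values.

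At single cytosines, a logistic model of the reads over all 1276684 common cytosines called those that differed by at least 25 points with a p under 0.01 after Benjamini-Hochberg adjustment. It called 70 of all cytosines, or 0.00548%, and 3 of the 66832 members. Without the adjustment, 307 members (0.459%) and 3764 of all cytosines (0.295%) had p under 0.05 and a difference of at least 25 points. limma on log2 ratios of the same reads called no member. By the same unadjusted rule, with at least 25 points, it had 248 members (0.371%) and 0.243% of all cytosines. The model with a replicate block also called 0 members, and by the unadjusted rule it had 297 (0.444%) and 0.289% of all cytosines. Without Mixed-1 the model called 14 members (0.0209%) and 0.0176% of all cytosines, and without Mixed-2 it called 20 members (0.0299%) and 0.0219% of all. Each of these held 2 of the 3, and without B6-1 or B6-2 it called 0. At an adjusted p under 0.05 it called 10 members (0.015%) and 0.0107% of all cytosines. The members' share was below that of all cytosines in the main call (0.00449% against 0.00548%) and above it at the looser cut-offs. Of the common autosomal cytosines 65.4% were below 20% methylation, against 16.9% of the members, and its part in these shares was not tested. The windows of 61 bases around the 3 sites are shown on the strand of the gene, with the called CpG in capitals. They come from chr17:24408654-24408714 (exon 31 of Abca3, a lipid transporter of lung surfactant, plus strand), chr17:24505227-24505287 (exon 18 of Caskin1, a synaptic scaffold, plus strand) and chr8:71602453-71602513 (exon 6 of Niban3, plus strand).
Abca3 exon 31: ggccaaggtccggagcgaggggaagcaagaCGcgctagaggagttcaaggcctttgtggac
Caskin1 exon 18: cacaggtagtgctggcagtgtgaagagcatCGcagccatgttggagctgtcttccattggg
Niban3 exon 6: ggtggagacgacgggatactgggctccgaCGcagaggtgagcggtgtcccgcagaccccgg

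The Abca3 cytosine at position 24408684 of chromosome 17 was methylated in 1 of 82 reads in Mixed-1 and 0 of 89 in Mixed-2, against 108 of 124 in B6-1 and 100 of 109 in B6-2. Its levels were 1.22% (95% Wilson interval 0.216% to 6.59%), 0% (up to 4.14%), 87.1% (80.1% to 91.9%) and 91.7% (85.05% to 95.6%), and the adjusted p was 4.44e-06. The Caskin1 cytosine at position 24505257 of chromosome 17 was methylated in 0 of 40, 0 of 46, 54 of 58 and 59 of 67 reads, or 0% (up to 8.76%), 0% (up to 7.71%), 93.1% (83.6% to 97.3%) and 88.1% (78.2% to 93.8%), with an adjusted p of 7.21e-05. Both read as unmethylated in the Mixed mice and methylated in the B6 mice, and in these files a C-to-T base difference would read the same way, which was not tested. Their neighbours did not share the difference: the other 5 members of the Abca3 exon differed between strain means by at most 7.63 points and the other 50 of the Caskin1 exon by at most 16.7 points.

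Niban3 went the other way and with its neighbours. Its cytosine at position 71602483 of chromosome 8, on the minus strand, was methylated in 20 of 27 reads in Mixed-1 and 13 of 19 in Mixed-2, against 2 of 96 in B6-1 and 3 of 84 in B6-2. The levels were 74.1% (95% Wilson interval 55.3% to 86.8%), 68.4% (46.0% to 84.6%), 2.08% (0.573% to 7.28%) and 3.57% (1.22% to 9.98%), with an adjusted p of 0.00307. The other 19 members of the exon had means of 32.4%, 18.0%, 6.94% and 6.06% mouse by mouse, so the Mixed mice were higher over the whole exon but Mixed-1 and Mixed-2 also differed from each other. Exon 5 of Niban3 had 54.9%, 26.6%, 15.8% and 17.3% over 18 members, the largest strain difference (24.2 points) of the 1419 exons with at least 10 members, and exon 6 came next with 21.2 points. The next 2 exons were exon 3 of Nr2f6, an orphan nuclear receptor, with 57.3%, 40.3%, 32.0% and 30.8%, and exon 12 of Mast1, a kinase, with 33.2%, 44.6%, 53.8% and 57.3%. These exons were picked for their difference and were not tested.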

How the data were processed

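Enhanced reduced representation bisulfite sequencing was done on the livers of 4 male mice, 2 of each strain, and groups followed the sample labels. Per the methods, the authors sequenced 50-cycle reads and mapped them to mm10 with BSMAP, whereas the submitters' processing notes name Bismark and SAMtools. The deposited files list each CpG cytosine by strand, with its coverage as a raw read count of at least 10 and with freqC and freqT, which are C and T as a percent of that coverage.

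Members, lists and named exons were chosen with earlier results of these data known. Exons came from RefSeq on GRCm38, the assembly called mm10 in genome browsers. Named exons were, of those with at least 10 members, the 5 lowest, 5 highest and 5 nearest 50%, and, of those with at least 4 members and 4 intron sites and the same sign in all mice, the 5 most above and 5 most below their introns. The 5 genes with most members, all members called between strains and the 2 genes with most members of each list were also named, and others were named after their values were seen. 1 of the 5 highest exons is not reported here. Gene lists were described by counts and medians only.

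Means over sites were taken in each mouse and compared over the 4 mice, since sites of 1 exon share reads and are no replicates. Two-sided exact sign-flip tests over 4 mice cannot go below p = 0.125. Each mouse gave 1 library. The logistic model used all 1276684 cytosines, 87 of them mitochondrial, and limma 3.58.1 (R 4.3.3, data.table version 1.17.8) shrank each site's overdispersion. The design had set the moderation over all cytosines, but the model then recovered no changed site in simulated data, so it was estimated on sites with 10% to 90% methylation, which gave an overdispersion of 1.80. Tested on simulated data for the strain comparison, with 200 of 100000 sites changed by 50 points, it recovered 179 (89.5%) with 0 false calls, and 33 (16.5%) with the replicate block. The simulated sites all had the same overdispersion, and the moderation had been chosen on simulated data. The recovery is therefore no independent check of the calls in the mice. Python 3.11.15, numpy 2.4.6, scipy 1.17.1, pandas 2.3.3 and matplotlib 3.10.9 were used. A site at 50% has a 95% Wilson interval of 23.7% to 76.3% at 10 reads and of 36.9% to 63.1% at 52 reads. PCR copies are not independent, so intervals cover counting error only. Alternatives were coverage, TSS, transcript, flank and weighting choices, a replicate block and leaving out each mouse.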

Additional observations from a re-analysis of the deposited data

How the results depend on the processing

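The contrasts by exon number and by exon length kept their sign under all 14 alternatives each, from −29.8 to −7.88 points and from −21.5 to −1.51 points. Classes by TSS distance, density and CpG ratio are not among these alternatives, and in some of them the sign was the other one, as given above. At 5 kb or more from any TSS the contrasts by number and by length were −7.88 and −11.3. Averaged over exons they were −15.1 and −4.17, and within genes −13.4 and −1.51. Dense minus sparse was −20.4 at 5 kb or more and −51.2 with a window of 500 bp, and codon positions 1-2 differed by 4.64 at 5 kb or more and 1.10 within exons. The exon minus intron difference was reversed with reads pooled (−2.87 points) and with the mean over sites (−1.99 points), and kept its sign under the other 15. Within the same exon, an alternative chosen after seeing the data, dense minus sparse was reversed to 0.110 points and codon positions 2-3 to 0.168 points. The mean of 70.8% moved to 69.5% at a coverage minimum of 20, 68.9% with curated TSSs only, 77.0% at 5 kb or more from any TSS, 71.3% without terminal exons of other transcripts, 71.9% with strands merged and 67.9% with reads pooled. The shares above 80% and below 20%, taken per mouse, moved to 61.1% and 18.3% at the coverage minimum of 20, to 60.2% and 19.1% with curated TSSs, to 68.8% and 10.6% at 5 kb, and to 43.9% and 14.1% with bounds of 90% and 10%.

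The strain difference of 0.0710 points ran from −0.198 to 0.340 points when 1 mouse was left out, and was reversed without Mixed replicate 2. With the replicate block, which cannot change a mean of pairs, the paired difference was 0.0710 points, and the pairs gave −0.168 and 0.310. The 3 called members became 10 at an adjusted p under 0.05 (137 of all cytosines, from 70), 0 with the overdispersion prior from all common sites (chosen after seeing the data), 0 with the replicate block and 0 with limma on log2 ratios. They ran from 0 to 20 when 1 mouse was left out: 14 without Mixed-1 and 20 without Mixed-2 (225 and 279 of all cytosines), and 0 without B6-1 or B6-2, where the lone mouse of a strain is assumed to vary like the other strain. The mice share only a number: the deviations of Mixed-1 and B6-1 from their strain means correlated at 0.00420 over the members. Differences under 25 points were not called by rule, and recovery of changes under 50 points was not tested.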

Other observations

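Internal exons that another curated transcript of the gene skips were slightly lower than the rest. In genes with more than 1 curated transcript, 331 skipped exons of 305 genes had a mean over exons of 77.4% ± 0.306 (SD, n = 4 mice), and 5907 exons that no such transcript skips had 80.6% ± 0.279. The medians were 88.2% and 89.6%. Over sites the means were 65.4% ± 0.281 and 74.5% ± 0.286, with 43.2% and 31.6% of the sites in CpG-dense sequence.

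In the 178 genes with members in exons of both kinds, skipped minus other exons gave −2.65 and −3.18 points in the Mixed mice and −2.51 and −2.81 in the B6 mice, or −2.79 ± 0.287 (SD, exact sign-flip permutation p = 0.125, the smallest possible). The median gene differed by −0.753 points, and 95 of these genes were lower and 83 higher. Whether these exons are skipped in liver was not measured here. This comparison was chosen after seeing the data.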
